A study of Mus musculus with 9 samples.

Results

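Interferon-stimulated genes were examined in tumour organoids that had been exposed to Cre recombinase, with or without floxed alleles of Cdh1, the gene for the adhesion protein E-cadherin. The 36 genes were taken by symbol as known interferon-stimulated genes. No measured value entered the rule, but the list was chosen with earlier results of these data known. All 36 were found among the 51912 genes of the count table, and all were among the 17289 genes that passed the filter on low counts. The 5 E-cad-KO samples were Cdh1fl/fl and the 4 WT samples were Cdh1+/+, and both groups also carried MMTV::PyMT and the reporter (R26)pCA::mT/mG. All were on the FVB/NJ strain, and every sample was transduced overnight with adeno-Cre, an adenovirus carrying Cre, and then kept for 48 h in collagen I with FGF2. In such mice the mammary tumour virus promoter drives the PyMT oncogene in mammary epithelium, and mT/mG is a fluorescent reporter that switches colour where Cre has acted. No sample without adenovirus was analysed here, and the labels give no ages. The samples are described as biological replicates but are tied to no named animal, so the spread behind each p-value is the spread among these samples, which may be technical in part.

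Interferons are secreted proteins by which cells warn one another of infection. They bind receptors on the cell surface, and JAK kinases then activate transcription factors, among them STAT2, which with IRF9 enters the nucleus in a complex that binds a DNA motif, the interferon-stimulated response element. The genes under this control code for sensors of foreign RNA and DNA, enzymes that degrade RNA or halt translation, proteins that block virus assembly, and feedback inhibitors. Epithelial cells can respond to both type I and type III interferon.

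The promoters show how the motif recurs among these genes. A core of the response element, the letters GAAA followed by any 2 bases and GAAA again, was searched on both strands, overlapping matches included, in the 250 bases before the start in RefSeq's promoter table (GRCm38.p6), in which 26 of the 36 genes had an entry. The motif was found at least once for 10 of these 26 genes (38.5%), against 936 of 27025 genes in the whole table (3.46%). The genes with it were Isg15, Ifit1, Ifit3, Stat2, Oas1a, Oas3, Rsad2, Bst2, Cxcl10 and Ddx60. The 160 bases before the start are given for 6 genes, 5' to 3' on the gene's strand, with matches in capitals. The first 4 hold matches and had positive log2 fold changes of E-cad-KO over WT. Irf7 rose without a match in this window, and Ifit3 holds a pair of matches and had a log2 fold change near 0. The 6 were picked as examples. Of the searched genes without a match, all but Ifit2 and Herc6 also had positive log2 fold changes. Matches that overlap one another form 1 run of capitals.
Bst2 (chr8:71537473-71537632, minus strand): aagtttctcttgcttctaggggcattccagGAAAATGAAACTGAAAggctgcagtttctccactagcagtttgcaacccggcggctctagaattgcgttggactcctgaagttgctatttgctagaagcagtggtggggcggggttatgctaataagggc
Oas1a (chr5:120907526-120907685, minus strand): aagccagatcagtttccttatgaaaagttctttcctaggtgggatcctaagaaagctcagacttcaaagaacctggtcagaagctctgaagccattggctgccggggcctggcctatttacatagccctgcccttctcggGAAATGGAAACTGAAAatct
Oas3 (chr5:120777660-120777819, minus strand): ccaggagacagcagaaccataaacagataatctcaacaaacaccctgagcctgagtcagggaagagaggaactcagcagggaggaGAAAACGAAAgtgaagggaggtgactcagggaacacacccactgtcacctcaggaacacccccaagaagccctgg
Isg15 (chr4:156200819-156200978, minus strand): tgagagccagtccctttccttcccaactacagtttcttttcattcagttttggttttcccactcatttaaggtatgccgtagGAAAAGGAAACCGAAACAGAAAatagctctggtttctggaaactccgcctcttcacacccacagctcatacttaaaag
Irf7 (chr7:141266425-141266584, minus strand): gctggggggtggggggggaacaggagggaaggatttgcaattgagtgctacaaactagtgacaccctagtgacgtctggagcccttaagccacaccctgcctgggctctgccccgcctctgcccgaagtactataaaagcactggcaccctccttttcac
Ifit3 (chr19:34583369-34583528, plus strand): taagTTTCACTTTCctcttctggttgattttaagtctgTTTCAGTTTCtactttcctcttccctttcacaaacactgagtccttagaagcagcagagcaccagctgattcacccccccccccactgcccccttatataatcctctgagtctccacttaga

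Library totals ran from 44890302 to 64763645 counts, and levels are given as counts per 1000000 (CPM) of the TMM-scaled library size. The targeted gene Cdh1 fell to 91.3 ± 15.4 CPM in E-cad-KO organoids, against 189 ± 44.1 CPM in WT organoids (SD, n = 5 and n = 4, log2 fold change -1.05, SE 0.16, edgeR adjusted p = 0.0275). The epithelial markers Epcam, Krt8 and Krt18 were abundant in every library. WT 4 stood apart from the other libraries through macrophage genes. The 10 macrophage markers summed to 26.0 to 153 CPM in E-cad-KO libraries and to 17.9 to 368 CPM in WT libraries, with the highest sum in WT 4. No macrophage marker was called by edgeR. The 8 markers of T and NK cells together had 27 counts over the E-cad-KO libraries and 17 over the WT libraries, with Cd3e and Ncr1 at 0 in all 9. Siglech, a marker of plasmacytoid dendritic cells, was also at 0 counts in all 9 libraries.

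As a group the interferon-stimulated genes were higher in E-cad-KO organoids. By edgeR's quasi-likelihood test with adjustment over all genes tested, 3 of 36 were called at an adjusted p under 0.05, all higher: Bst2, Irf7 and Oas2. This is 8.33% of the genes, against 1.41% of all genes tested called in either direction, 0.908% higher and 0.503% lower. The log2 fold change was positive for 33 of 36 genes, against 48.0% of all genes tested, and its median was 0.39, against -0.01 over all genes tested. At an unadjusted p under 0.05, 17 of 36 were higher and 0 lower, against 8.74% and 7.99% of all genes tested. In bulk RNA, more cells that express these genes and more RNA per cell cannot be told apart. Most differences were modest, with 14 genes at least 1.5-fold higher and 3 genes (Oas3, Oas2 and Usp18) at least 2-fold higher in E-cad-KO. Every E-cad-KO library lay above every WT library for 7 of 36 genes (19.4%), against 4.28% of all genes tested, and below every WT library for 0, against 3.83%.

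**Figure D1:**
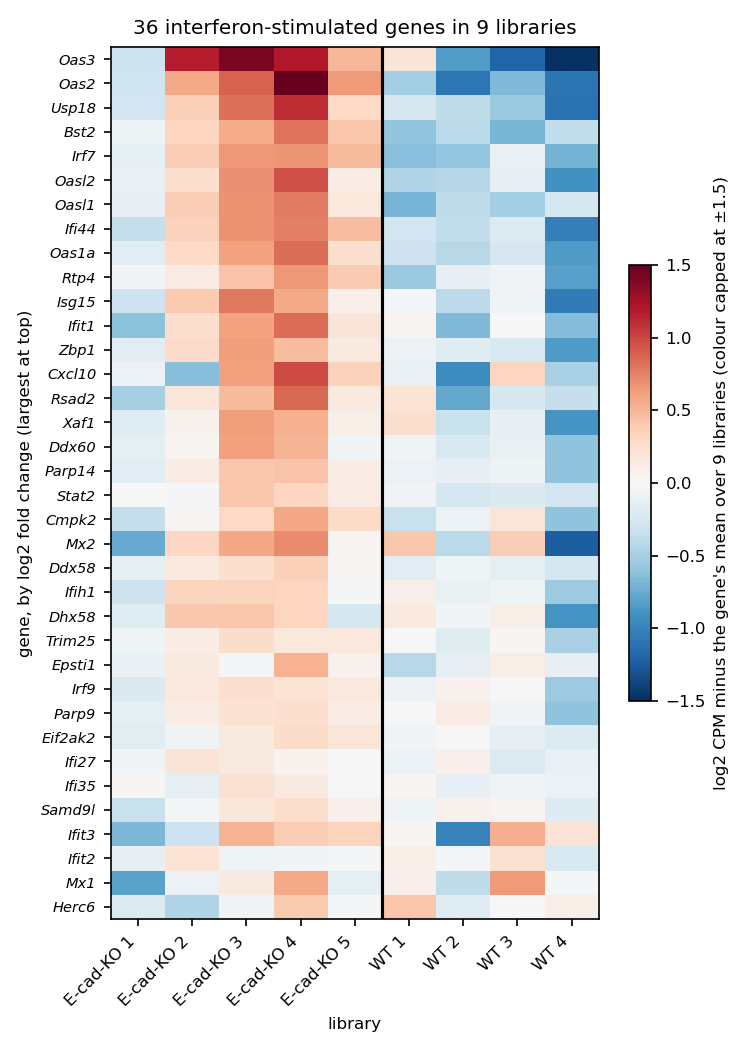
Rows are the 36 genes ordered by log2 fold change, columns are the 5 E-cad-KO and 4 WT libraries, and colour is log2 CPM minus the gene's mean over the 9 libraries. E-cad-KO 3 and 4 are red in most rows, E-cad-KO 1 is pale or blue, and WT 4 is the bluest column.

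Which library was high or low was largely shared among the genes. E-cad-KO 4 was above the 9-library mean for 35 of 36 genes, E-cad-KO 3 for 33, and E-cad-KO 2 and 5 for 28 each, but E-cad-KO 1 for only 2. Of the WT libraries, WT 1 was above the mean for 14 genes, WT 2 for 4, WT 3 for 12 and WT 4 for 2. WT 4 held the lowest value of all 9 libraries for 24 of 36 genes. A score, the mean over the 36 genes of log2 CPM (prior count 2) after centring each gene, summarised this. The score was -0.24, 0.16, 0.45, 0.56 and 0.16 in E-cad-KO 1 to 5 and -0.11, -0.31, -0.10 and -0.58 in WT 1 to 4. It averaged 0.22 ± 0.31 in E-cad-KO and -0.28 ± 0.23 in WT (SD, n = 5 and n = 4). The groups overlapped, because E-cad-KO 1 scored lower than WT 1 and WT 3, while the other 4 E-cad-KO libraries scored above every WT library. Without E-cad-KO 1, every remaining E-cad-KO library lay above every WT library for 19 of 36 genes (52.8%), against 5.27% of all genes tested. E-cad-KO 1 was the lowest E-cad-KO library for 31 of 36 genes, so leaving it out had to raise the count. Leaving out any of the other 8 libraries gave 7 to 10 of 36 genes, against 4.84% to 6.72% of all genes tested.

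**Figure D2:**
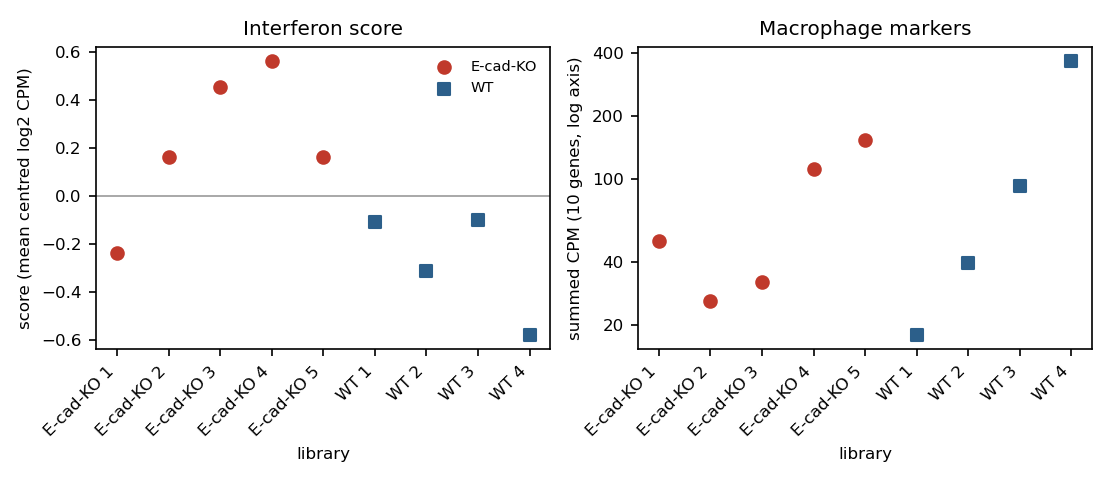
Left, the interferon score of each library (mean centred log2 CPM). Right, the summed CPM of 10 macrophage markers on a log axis. E-cad-KO libraries are circles and WT libraries are squares. WT 4 has the lowest score (-0.58) and the highest macrophage sum (368 CPM), and E-cad-KO 4 has the highest score (0.56).

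Of the transcription factors of the pathway, Irf7, which amplifies interferon production and responses, had 18.2, 26.0, 31.5, 31.7 and 27.8 CPM in E-cad-KO 1 to 5. In WT 1 to 4 it had 13.0, 13.4, 18.6 and 12.2 CPM. The groups overlapped only through E-cad-KO 1 and WT 3. Irf7 rose by a log2 fold change of 0.92 (SE 0.18, edgeR adjusted p = 0.0419). The parts of the complex that binds the response element differed less. Stat2 averaged 26.1 ± 3.54 CPM in E-cad-KO and 20.1 ± 1.54 CPM in WT without overlap (log2 fold change 0.38, edgeR adjusted p = 0.0934). Irf9 averaged 60.0 ± 7.12 and 50.9 ± 8.91 CPM, in E-cad-KO and WT (0.24, edgeR adjusted p = 0.399). Irf7 shares exon sequence with Phrf1 on the other strand, and Irf9 with Rnf31 on its own.

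Usp18, the protease that removes ISG15 from proteins and damps signalling at the type I receptor, had 5.80, 9.09, 12.6, 15.4 and 8.71 CPM in E-cad-KO 1 to 5. In WT 1 to 4 it had 5.99, 5.43, 4.82 and 3.25 CPM. E-cad-KO 1 again lay within the WT range, and the other 4 lay above it. Usp18 was not called (log2 fold change 1.08, SE 0.28, edgeR adjusted p = 0.0887). Its exons overlap Gm44148 on the other strand.

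The oligoadenylate synthetases, which sense double-stranded RNA and make the messenger that activates RNase L, held the largest differences. Oas2 had 6.02, 11.0, 13.7, 21.9 and 11.5 CPM in E-cad-KO 1 to 5, against 5.20, 3.46, 4.66 and 3.43 CPM in WT 1 to 4. E-cad-KO 4 was the highest, and no E-cad-KO library fell into the WT range. Oas2 rose by a log2 fold change of 1.61 (SE 0.33, edgeR adjusted p = 0.0476). Its neighbour Oas3 had 1.39, 3.99, 4.70, 4.04 and 2.47 CPM in E-cad-KO 1 to 5, against 1.99, 0.956, 0.738 and 0.365 CPM in WT 1 to 4. Oas3 was low throughout, with E-cad-KO 1 below WT 1, and its larger log2 fold change of 1.71 (SE 0.49) was not called (edgeR adjusted p = 0.119).

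Oas1a, another synthetase, had 13.6, 18.7, 23.1, 27.3 and 18.0 CPM in E-cad-KO 1 to 5, against 12.3, 11.4, 12.8 and 8.42 CPM in WT 1 to 4. The groups were separate, by a narrow gap between E-cad-KO 1 and WT 3 (log2 fold change 0.84, SE 0.20, edgeR adjusted p = 0.0680). Oasl1, which in mice represses translation of Irf7 mRNA, had 4.50, 6.35, 7.82, 8.44 and 5.49 CPM in E-cad-KO 1 to 5, against 3.02, 3.76, 3.43 and 4.07 CPM in WT 1 to 4. It also had separate groups (0.87, SE 0.19, edgeR adjusted p = 0.0574), and its exons overlap Gm13822 on the other strand. Oasl2 had 19.5, 24.8, 33.5, 40.8 and 22.5 CPM in E-cad-KO 1 to 5, against 15.3, 15.5, 19.2 and 11.1 CPM in WT 1 to 4. The lowest E-cad-KO library and the highest WT library were nearly level (0.89, SE 0.23, edgeR adjusted p = 0.0942). Eif2ak2, the kinase PKR that halts translation on double-stranded RNA, stood apart from the synthetases with 104 ± 12.7 CPM in E-cad-KO and 92.3 ± 5.83 CPM in WT (0.18, edgeR adjusted p = 0.363).

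**Figure D3:**
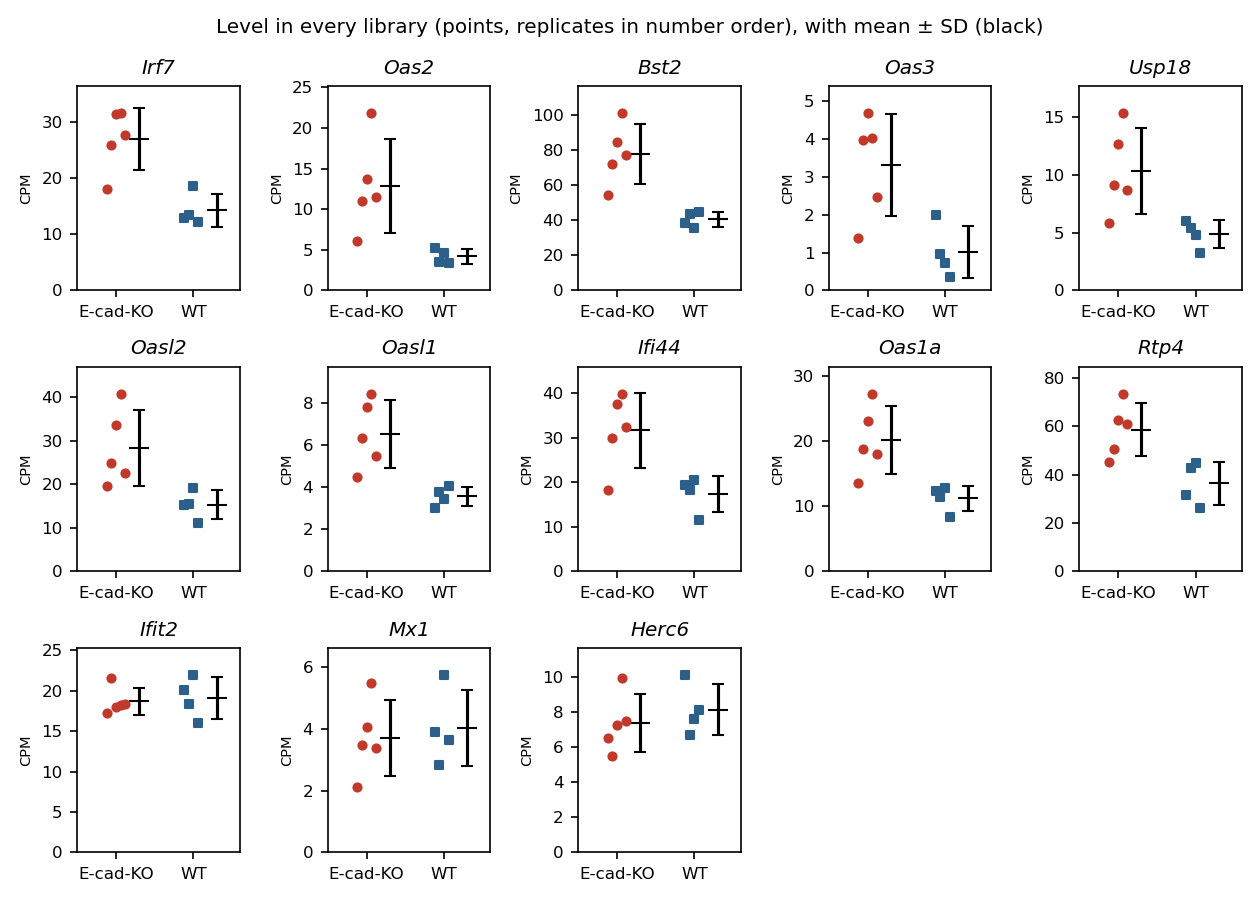
CPM of 13 genes in each E-cad-KO (circles) and WT (squares) library, with mean ± SD beside the points and each axis starting at 0. Bst2, Oas2, Oasl2, Oasl1, Oas1a and Rtp4 have separate groups. Ifit2, Mx1 and Herc6, the 3 genes with negative log2 fold changes, have overlapping groups.

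The sensors of nucleic acid differed by smaller amounts. All 6 had positive log2 fold changes, 0 of 6 were called by edgeR, and 4 of 6 had an unadjusted p under 0.05. DESeq2 called 2 of them, Ddx58 and Zbp1, both higher, where it called 6.98% of all genes tested (4.13% higher). It also called genes of other roles, which are named below. Zbp1, a sensor of left-handed nucleic acid that triggers cell death, averaged 36.8 ± 7.57 CPM in E-cad-KO and 24.2 ± 5.20 CPM in WT (log2 fold change 0.60, edgeR adjusted p = 0.142). Ddx58, which codes for the RNA sensor RIG-I, averaged 126 ± 16.5 CPM in E-cad-KO and 102 ± 5.99 CPM in WT (0.30, edgeR adjusted p = 0.139). Ddx60, a helicase that aids RIG-I, stood at 0.46, Ifih1 (the sensor MDA5) at 0.30, Dhx58 (the regulator LGP2) at 0.29 and Trim25, a ubiquitin ligase acting on RIG-I, at 0.28.

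Among proteins that block viruses directly, Bst2, which tethers budding virus to the membrane, had the smallest adjusted p of the 36 genes. Its level was 54.5, 72.1, 84.7, 101 and 77.0 CPM in E-cad-KO 1 to 5. In WT 1 to 4 it was 38.2, 43.7, 35.7 and 44.7 CPM. Every E-cad-KO library lay above every WT library, and Bst2 rose by a log2 fold change of 0.94 (SE 0.16, edgeR adjusted p = 0.0325). Bst2 lies on chromosome 8 (71534255 to 71537456), 35.1 Mb from Cdh1, and Ddx60 lies on the same chromosome 44.6 Mb from it. A difference linked to the chromosome that carries the floxed alleles and an effect of losing E-cadherin cannot be told apart for this pair. Rsad2, the enzyme viperin that makes a chain-terminating nucleotide, stood at a log2 fold change of 0.55, and Cmpk2, the nucleotide kinase beside it on chromosome 12, at 0.38. Neither was called (edgeR adjusted p = 0.350 and 0.422).

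The dynamin-like GTPases and the IFIT proteins, which bind viral RNA, did not follow the group evenly. Mx1 had 2.11, 3.48, 4.07, 5.49 and 3.37 CPM in E-cad-KO 1 to 5, against 3.91, 2.84, 5.76 and 3.63 CPM in WT 1 to 4. The ranges overlapped, with E-cad-KO 1 below every WT library and WT 3 above every E-cad-KO library (log2 fold change -0.12, SE 0.28, edgeR adjusted p = 0.876), and Mx2 stood at 0.33 (SE 0.37). Ifit2 had 17.2, 21.6, 18.0, 18.2 and 18.3 CPM in E-cad-KO 1 to 5, against 20.1, 18.4, 22.0 and 16.0 CPM in WT 1 to 4. For Ifit2 the log2 fold change stood at -0.03 (SE 0.10, edgeR adjusted p = 0.916), beside 0.07 (SE 0.33) for Ifit3 and 0.61 (SE 0.28) for Ifit1, which lie within the same stretch of chromosome 19. None of the IFIT genes was called. Ifit3 has a close copy, Ifit3b, and reads shared by such copies could be split or lost in counting, which makes its value uncertain. Samd9l, a restriction factor of poxviruses, averaged 65.3 ± 9.80 CPM in E-cad-KO and 61.7 ± 4.79 CPM in WT (0.08, edgeR adjusted p = 0.773).

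Isg15, the ubiquitin-like protein that is attached to other proteins, averaged 35.4 ± 9.99 CPM in E-cad-KO and 22.1 ± 6.44 CPM in WT, where WT 1 lay above E-cad-KO 1 (log2 fold change 0.68, SE 0.26, edgeR adjusted p = 0.231). Herc6, the main ligase for ISG15 in mice, differed in sign. Herc6 had 6.53, 5.51, 7.28, 9.96 and 7.49 CPM in E-cad-KO 1 to 5, against 10.1, 6.66, 7.61 and 8.09 CPM in WT 1 to 4 (-0.14, SE 0.18, edgeR adjusted p = 0.751). The highest value of Herc6 over the 9 libraries was in WT 1. Parp14, an ADP-ribosyltransferase, stood at 0.40 (SE 0.14), and its neighbour Parp9, which shares exon sequence with its partner Dtx3l, at 0.22 (SE 0.14), neither called.

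Of the remaining genes, Rtp4, a chaperone of membrane receptors, had 45.2, 50.7, 62.6, 73.4 and 60.7 CPM in E-cad-KO 1 to 5, against 31.7, 42.9, 44.9 and 26.4 CPM in WT 1 to 4. The groups were separate, with E-cad-KO 1 just above WT 3 (log2 fold change 0.68, SE 0.18, edgeR adjusted p = 0.100). Ifi44, a cytoplasmic antiviral protein, had 18.4, 29.9, 37.6, 39.9 and 32.4 CPM in E-cad-KO 1 to 5, against 19.4, 18.3, 20.5 and 11.6 CPM in WT 1 to 4. Only E-cad-KO 1 fell within the WT range (0.86, SE 0.24, edgeR adjusted p = 0.105). Cxcl10, a chemokine that attracts T cells, was close to the limit of measurement at 1.10 ± 0.458 CPM in E-cad-KO and 0.728 ± 0.280 CPM in WT (0.59, SE 0.38), and Art3 overlaps it on the other strand. Xaf1, an antagonist of the apoptosis inhibitor XIAP, stood at 0.48, Epsti1 at 0.27, Ifi27 at 0.15 and Ifi35 at 0.11, none called.

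**Figure D4:**
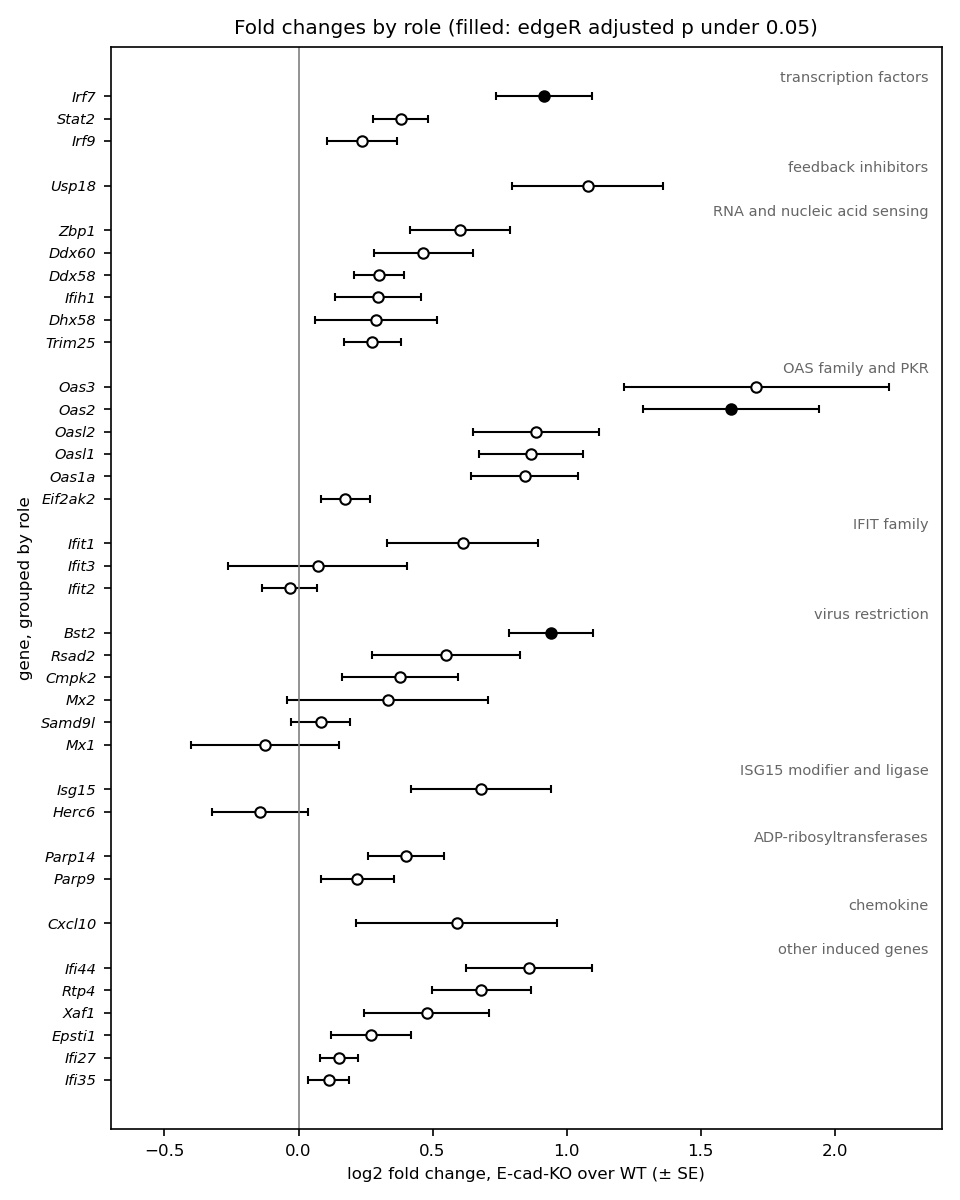
Log2 fold change of E-cad-KO over WT with its standard error for the 36 genes, grouped by role. Filled points are the genes called by edgeR at an adjusted p under 0.05 (Irf7, Oas2 and Bst2), and the 3 genes left of 0 are Ifit2, Mx1 and Herc6.

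The calls depended on which libraries were kept. In the 9 fits that each dropped a library, Bst2, Irf7 and Oas2 were all called without E-cad-KO 1, Bst2 alone was called without WT 4 (edgeR adjusted p = 0.0386), and 0 of 36 genes were called in each of the other 7 fits, where 14 to 20 genes had an unadjusted p under 0.05. In those 7 fits the edgeR adjusted p ran from 0.0566 (without E-cad-KO 4) to 0.105 (without WT 3) for Bst2. For Irf7 it ran from 0.0722 (without E-cad-KO 2) to 0.103 (without E-cad-KO 3), and without WT 4 it was 0.0615. For Oas2 it ran from 0.0665 (without E-cad-KO 4) to 0.130 (without WT 3), and without WT 4 it was 0.0778. Over all genes tested, 9 to 334 were called in the 9 fits. The share was 0.169% without E-cad-KO 1 and 1.91% without WT 4. DESeq2 called 13 of 36 genes, all higher, against 4.13% of all genes tested called higher. These were Bst2, Irf7, Oas2, Oas3, Oas1a, Oasl1, Oasl2, Usp18, Stat2, Ifi44, Rtp4, Ddx58 and Zbp1. With limma-voom 1 of 36 was called, Bst2, against 2.94% of all genes tested in either direction and 1.70% higher, so that count was close to the share over all genes. The median log2 fold change of the 36 genes moved less, from 0.30 without WT 4 to 0.51 without WT 3.

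The genes also moved together among libraries of the same genotype. After each gene's group means were subtracted from its log2 CPM, the median Pearson r between pairs of the 36 genes was 0.66 over the 9 libraries (630 pairs, 97.8% of them positive). Over all pairs of the 17289 genes tested the median was -0.00, with 50.0% positive. These are descriptions, since all pairs share the same 9 libraries, their depth and their cell composition. Each gene was also compared with the mean of the other 35. The correlation was above 0.7 for 27 of 36 genes, highest for Oas1a (0.99), Ifi44 (0.96) and Parp14 (0.95). Mx1 and Mx2, whose log2 fold changes (-0.12 and 0.33) were smaller than their standard errors (0.28 and 0.37), still followed the others within genotypes (0.82 and 0.93). The genes least tied to the rest were Ifi27 (0.17), Epsti1 (0.42) and Ifit2 (0.46). Bst2 and Oasl1 stood at 0.57 and 0.55, and without WT 4 at 0.81 and 0.83, whereas Ifit2 then stood at 0.21. Without WT 4 the median over pairs was 0.68.

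**Figure D5:**
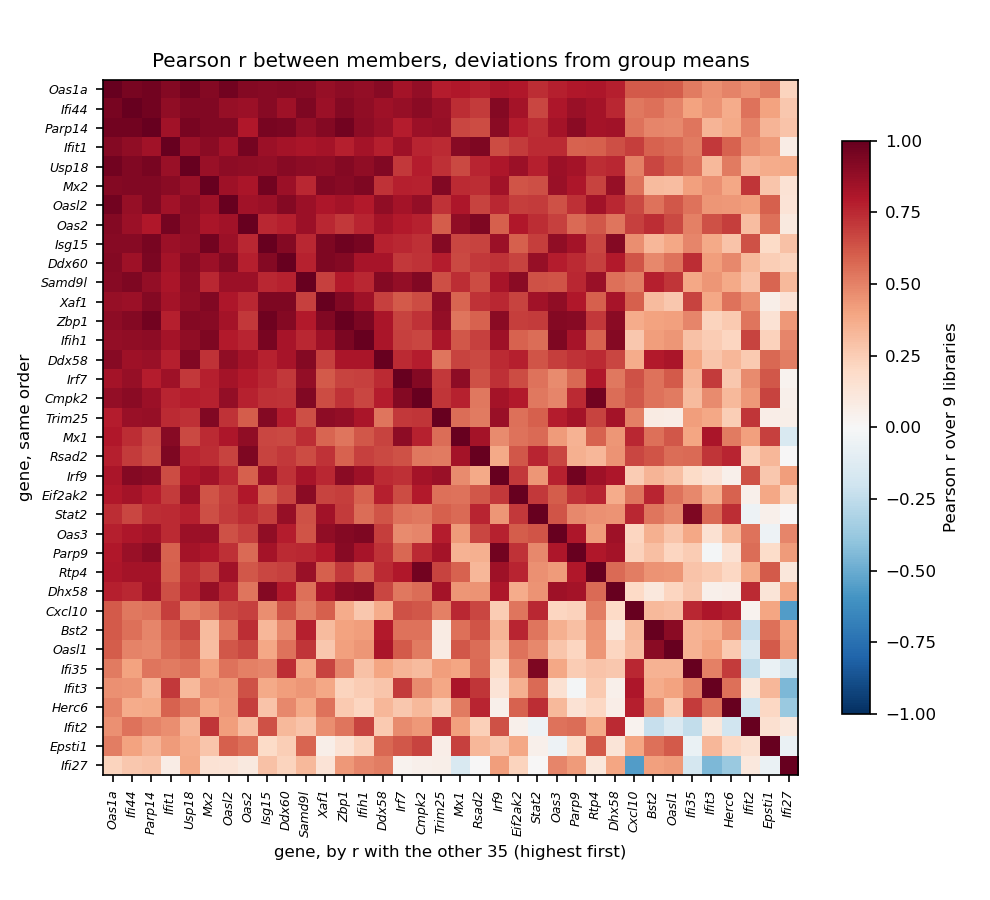
Pearson r between each pair of the 36 genes over 9 libraries, from log2 CPM with group means subtracted, ordered by each gene's r with the other 35. The red block at upper left holds most genes, and Ifi27, Epsti1 and Ifit2 are at the pale edge.

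Outside the list, the 8 genes whose deviations from the group means were most like the score's were Apol9b (Pearson r 0.97), Oas1b (0.96), Irgm2 (0.96), AW011738 (0.95), Trim56 (0.95), Rbm17 (0.94), Igtp (0.94) and Hsh2d (0.93), over 9 libraries and among genes averaging at least 1 CPM. Apol9b, Oas1b, Irgm2 and Igtp are themselves known to respond to interferon. None of the 8 was called between genotypes by edgeR. The largest log2 fold change among them was that of Apol9b (1.20, edgeR adjusted p = 0.0828).

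The ligands were at or near 0 counts. None of the 13 interferon genes examined passed the filter, and 5 of them had 0 counts in all 9 libraries. The type I genes together had 45 counts over the E-cad-KO libraries and 46 over the WT libraries, of which Ifnb1, the gene for interferon beta, had 7 and 3. The interferon gamma gene Ifng and the lambda gene Ifnl2 had at most 1 count in any library, and Ifnl3 had 0. No ligand exceeded 10 counts in a library.

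Receptors and kinases of the pathway differed little. Of 11 tested, 10 had positive log2 fold changes with a median of 0.13, 0 were called by edgeR, and at an unadjusted p under 0.05, 0 were lower and 2 higher: the receptor genes Ifnlr1 (0.18) and Ifnar1 (0.14). Among sensors and adaptors upstream of interferon, 0 of 15 tested were called by edgeR and 3 were higher at an unadjusted p under 0.05. These were Traf3, an adaptor for interferon induction (0.30, edgeR adjusted p = 0.0511), the endosomal RNA receptor gene Tlr3 (0.30) and the kinase gene Ikbke (0.22). Cgas, the DNA sensor, stood at 0.00 (SE 0.13) and Tmem173, which codes for its partner STING, at -0.10 (SE 0.11).

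Negative regulators were mixed, with 4 of 11 tested having positive and 7 having negative log2 fold changes. By edgeR 0 were called, and at an unadjusted p under 0.05, 2 were higher and 3 lower. Socs1, which inhibits JAK kinases, stood at 0.51 (SE 0.17, edgeR adjusted p = 0.155), and Adar, the RNA editing enzyme that keeps self RNA from being sensed, at 0.22 (SE 0.07, edgeR adjusted p = 0.137). Rnaseh2b, a subunit of the enzyme that removes ribonucleotides from DNA, stood at -0.28 (SE 0.08, edgeR adjusted p = 0.111). Exons of Adar and Rnaseh2b overlap genes on the other strand, Chrnb2 and Dleu7.

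A further 47 interferon-stimulated genes that are not in the list also had mostly positive values. Of 46 tested, 37 had positive log2 fold changes, with a median of 0.16. By edgeR 13 were higher and 0 lower at an unadjusted p under 0.05, against 8.74% and 7.99% of all genes tested. After adjustment 1 was called (2.17%), against 1.41% of all genes tested, so that count was close to the share over all genes. Parp12, an antiviral ADP-ribosyltransferase, had 36.5, 38.2, 43.8, 46.2 and 41.2 CPM in E-cad-KO 1 to 5, against 25.8, 31.6, 30.6 and 24.0 CPM in WT 1 to 4. The groups did not overlap, and Parp12 rose by a log2 fold change of 0.56 (SE 0.10, edgeR adjusted p = 0.0343). The next by p were Apol9a (1.45), Oas1g (1.10) and Gbp3 (0.95), each with an edgeR adjusted p of 0.0574. Oas1g is a close relative of Oas1a, and reads common to both could be split between them or lost.

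Genes that respond mainly to interferon gamma were evenly divided. Of 12 tested, 6 had positive and 6 negative log2 fold changes, with a median of -0.07. The 6 with negative values were low, and their highest group mean was 1.92 CPM, for H2-Ab1 in WT. Of those with positive values, Gbp4, Tgtp1 and Tgtp2 were also low, and their highest group mean was 2.03 CPM, for Gbp4 in E-cad-KO. Irf8 had 3.52 CPM in WT 4 and 0.119 to 0.656 CPM in WT 1 to 3, against a mean of 0.498 CPM in E-cad-KO. Cd74 was likewise highest in WT 4 (1.44 CPM), but H2-Ab1 was lower there (1.19 CPM) than in the other WT libraries. By edgeR 0 of 12 were called, with 1 (Tgtp1, 1.01, edgeR adjusted p = 0.280) higher at an unadjusted p under 0.05. Tgtp1 had 0.632, 0.642, 0.610, 2.29 and 1.34 CPM in E-cad-KO 1 to 5, against 0.408, 0.494, 0.722 and 0.566 CPM in WT 1 to 4. Irf1, the early transcription factor of that response, stood at 0.11 (SE 0.07, edgeR adjusted p = 0.470), and Ciita, the activator of MHC class II genes, at -0.59 (SE 0.29, edgeR adjusted p = 0.343).

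Markers of the cells in the gels were set beside these values. Of 9 tested macrophage markers, 1 had a positive and 8 a negative log2 fold change, and none was called. This direction rested on WT 4: without it, the mean of all 9 was higher in E-cad-KO, for example 58.7 ± 45.3 CPM of Lyz2 in E-cad-KO and 39.8 ± 33.4 CPM in WT 1 to 3 (SD, n = 5 and n = 3), against 307 CPM in WT 4. Endothelial markers were negative for 5 of 5 and summed to 3.58 to 6.35 CPM in E-cad-KO libraries and to 5.18 to 10.7 CPM in WT libraries. Of 6 fibroblast markers, 2 had positive and 4 negative values. They summed to 95.2 to 152 CPM in E-cad-KO and to 50.9 to 248 CPM in WT libraries, with WT 3 (218 CPM) close to WT 4 (248 CPM). Of 6 luminal epithelial markers, 4 had positive values, among them Krt8 (0.39, edgeR adjusted p = 0.0530) and Cldn7 (0.44, edgeR adjusted p = 0.0511). The other 2 had negative values, Elf5 at -0.38 (edgeR adjusted p = 0.103) and Krt19 at -0.57 (edgeR adjusted p = 0.351). The 6 summed to 4040 to 5123 CPM in E-cad-KO and to 3353 to 4606 CPM in WT libraries. Of 5 myoepithelial markers, 1 had a positive and 4 a negative log2 fold change, with a median of -0.36, and none was called. Without WT 4, the mean of all 5 was lower in E-cad-KO. Myoepithelial markers summed to 3442 to 7783 CPM in E-cad-KO and to 2352 to 11458 CPM in WT libraries. Most of each sum was Krt14, at 4263 ± 1620 CPM in E-cad-KO and 5457 ± 3160 CPM in WT (SD, n = 5 and n = 4). The part of cell composition in the interferon genes was not tested. With WT 4 left out, the median log2 fold change of the 36 genes was 0.30.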

How the data were processed

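RNA was sequenced from 9 organoid samples (5 E-cad-KO, 4 WT), which the labels' titles assign to groups. The authors deposited raw read counts per gene, not normalised. The submitters' processing notes name GRCm38 with the tools HTSeq, TopHat2 and Bowtie2, and per the labels' protocols the libraries were stranded TruSeq mRNA libraries. Their versions, the annotation release and the strand setting of counting were not given in the sources used here. Exons of 11 of the 36 genes overlap another counted gene, 8 of them on the other strand, which besides those named in the results are Ifi35, Dhx58 and Eif2ak2. Herc6 and Rtp4 overlap a predicted gene on their own strand. Depth, 44890302 to 64763645 counts, limits precision for genes of few counts, and such limits cover counting error only.

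Symbols, positions and exon overlaps came from GENCODE M21 (GRCm38). Groups were compared with edgeR 4.0.16 (R 4.3.3), by its quasi-likelihood test, with TMM factors, filterByExpr, robust dispersions, group as the only term and two-sided p-values with Benjamini-Hochberg adjustment over 17289 genes. Routines were tested on simulated counts. The standard error is the log2 fold change divided by the square root of F. Alternatives used DESeq2 1.42.0 and limma 3.58.1, other scalings and filters, a replicate block and left-out libraries. No 2 libraries of a group agreed within sampling noise (smallest chi-square per degree of freedom 13.7).

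The genes, lists and rules were chosen with earlier results of these data known. Levels are given in every library for called genes, for the largest absolute log2 fold changes up to 10 genes in all, and for genes with negative values. From each pathway list, called genes and up to 3 more by smallest p were named, and Cgas, Tmem173, Irf1 and the named cell markers were added after their values were seen.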

Additional observations from a re-analysis of the deposited data

Results flagged for a closer look

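In 2 of 30 group and gene combinations examined, 1 library stood far from the others of its group, a distance that chance gives in about 1 of 20 such groups. Both were E-cad-KO 2, which held 118 CPM of Cdh1 and 21.6 CPM of Ifit2, the highest among the 5 E-cad-KO libraries in both cases.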

How the results depend on the processing

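Whether the replicate numbers pair the samples is not known. Deviations of same-numbered libraries correlated from -0.32 to 0.28, and those of differently numbered libraries from -0.54 to 0.53. So few correlations, which also carry cell composition, cannot decide it. With the replicate number as a block, edgeR called 0 of the 36 genes and 0 of all genes, with 16 and 2418 at an unadjusted p under 0.05. DESeq2 called 13 of the 36 and 1206 of all genes, limma-voom 1 and 509. Without both WT 1 and WT 4, edgeR called 0 of the 36 (13 at an unadjusted p under 0.05) and 79 of all genes, and the median r between the 36 genes was 0.75. Leaving out 1 library at a time gave 0 to 3 calls among the 36, 9 to 334 among all genes, a median log2 fold change of 0.30 to 0.51, a score difference (E-cad-KO minus WT) of 0.39 to 0.62 and a median r of 0.52 to 0.72. Upper-quartile scaling gave 123 genes higher and 151 lower, against 157 and 87 with TMM, and kept the same 3 calls among the 36. Counting every gene with at least 1 count lost the calls of Irf7 and Oas2 (edgeR adjusted p = 0.0513 and 0.0864) and made one of Oasl1. Over 18 alternatives, Bst2 was called in 9, Irf7 in 6 and Oas2 in 6, always higher. The sign of the log2 fold change changed under at least 1 alternative for 5 genes, Herc6, Ifit2, Ifit3, Mx1 and Samd9l, none of them called. The causes were not tested. Low counts limit Oas3, Cxcl10, Ifit3 and the ligands. The comparison of cell markers without WT 4 was chosen after seeing the data.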

Other observations

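Levels per kilobase of exon ranked the 36 genes over a wide range. In E-cad-KO the highest were Ifi27 (92.0 CPM per kb) and Bst2 (86.3), followed by Isg15 (46.8), and the lowest were Cxcl10 (0.489) and Oas3 (0.469). In WT the same scale gave 82.9 for Ifi27, 44.9 for Bst2, 29.2 for Isg15, 0.323 for Cxcl10 and 0.143 for Oas3. Ifi27, the gene of the highest level, was also the one least tied to the other 35 within genotypes.

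Neighbouring genes did not always differ alike between genotypes. Oasl2 and Oasl1 on chromosome 5 had log2 fold changes of 0.89 and 0.87, and Oas3 and Oas2, on the same chromosome, had 1.71 and 1.61. Ifit1 and Ifit2 on chromosome 19 had 0.61 and -0.03, and Mx2 and Mx1 on chromosome 16 had 0.33 and -0.12. Differences between neighbours were not tested.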
